A study of Mus musculus with 12 samples.

Results

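The acute phase proteins are plasma proteins that hepatocytes secrete in changed amounts during inflammation, and 10 of their genes are described here: Orm1, Orm2, Saa1, Saa2, Saa3, Saa4, Hp, Apcs, Itih4 and Fgl1. They were taken by gene symbol from a table of 30743 rows, and all 10 symbols had a row. The study asked how maternal high-fat diet (HFD) and obesity act on the fetal liver, the organ in which blood cells form before birth. RNA was sequenced from whole livers of male C57BL/6J fetuses harvested at 15 ± 0.5 days post coitum, 6 from dams on a control diet with 13.5% of kilocalories as fat (Control) and 6 from dams on a diet with 60% (HFD). Dams of both groups had been on their diets for 12 to 14 weeks, and the dams were of the CD45.2 strain, with no transgene named for either group. The sample titles begin with 2 different numbers among the Control livers and 3 among the HFD livers, and what these numbers stand for was not given in the sources used here, so livers of 1 litter cannot be set apart.

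The level used throughout is the authors' average log2 CPM (read counts scaled to a common library total) over all 12 livers, which pools both diets into 1 value per gene. Values of single livers were not analysed here, and Control and HFD livers are therefore not compared. A pooled average has no spread between livers, so no test was run, and the intervals given are 95% Poisson intervals that cover counting error only. A whole fetal liver holds hepatoblasts and many more blood cells and their precursors, and in such a mixture fewer cells of a type and less RNA per cell cannot be told apart.

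In the acute phase, interleukin-6 acts through its receptor and gp130 on JAK kinases and STAT3, while interleukin-1 and tumour necrosis factor act through NF-kB, and C/EBP factors act with both at the promoters of the secreted proteins. Class 1 genes answer to interleukin-1 and interleukin-6 together, among them the serum amyloid A and alpha-1-acid glycoprotein genes. Class 2 genes answer mainly to interleukin-6, among them the fibrinogen chains. In the mouse the pentraxin that rises most is serum amyloid P, encoded by Apcs, whereas C-reactive protein moves little.

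Several of these genes are close copies of each other, and this bears on how reads are given to them. The 4 Saa genes lie together at chr7:46711998-46754313 (GRCm38, GENCODE M21), a cluster of 42.3 kb in the order Saa3, Saa4, Saa1, Saa2, with gaps of 12.3, 7.89 and 8.81 kb. Saa2 is on the forward strand and the other 3 are on the reverse strand. The coding sequences of Saa1 and Saa2 are 369 bases each, and 351 of those bases are identical (95.1%). Saa3 and Saa4 are further away, at 74.5% and 63.5% identity with Saa1. The first 240 coding bases of Saa1 and Saa2, which lie in their exons and begin at the start codon, are shown because all that separates the 2 genes in this stretch is 13 bases, printed in capitals:
Saa1: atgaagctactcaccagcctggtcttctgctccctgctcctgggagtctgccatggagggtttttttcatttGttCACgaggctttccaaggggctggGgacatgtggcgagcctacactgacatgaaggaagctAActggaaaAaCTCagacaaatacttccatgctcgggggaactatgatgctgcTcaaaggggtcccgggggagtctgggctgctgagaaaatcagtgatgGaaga
Saa2: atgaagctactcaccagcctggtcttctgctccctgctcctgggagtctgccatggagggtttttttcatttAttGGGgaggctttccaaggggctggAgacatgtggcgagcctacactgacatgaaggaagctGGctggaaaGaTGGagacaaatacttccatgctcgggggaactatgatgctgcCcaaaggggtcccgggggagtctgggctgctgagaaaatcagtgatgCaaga

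The symbols of this pair are themselves uncertain. RefSeq lists Saa2 among the synonyms of Saa1 and Saa1 among the synonyms of Saa2, so which of the 2 loci a row in the table stands for cannot be settled from its symbol. The sequences above carry the current GENCODE names.

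The alpha-1-acid glycoprotein genes form a second cluster at chr4:63344560-63365878, where Orm1, Orm3 and Orm2 follow each other on the forward strand within 21.3 kb. Orm1 and Orm2 share 561 of 624 coding bases (89.9%), and Orm3 shares 86.1% with Orm1 and 88.0% with Orm2. The first 240 coding bases are shown for the same reason, with the 33 differing bases in capitals:
Orm1: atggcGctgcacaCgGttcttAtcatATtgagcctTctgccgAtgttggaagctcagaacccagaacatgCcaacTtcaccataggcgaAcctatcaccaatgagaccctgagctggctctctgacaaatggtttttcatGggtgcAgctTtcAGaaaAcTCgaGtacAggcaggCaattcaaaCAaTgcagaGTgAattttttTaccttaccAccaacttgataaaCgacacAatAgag
Orm2: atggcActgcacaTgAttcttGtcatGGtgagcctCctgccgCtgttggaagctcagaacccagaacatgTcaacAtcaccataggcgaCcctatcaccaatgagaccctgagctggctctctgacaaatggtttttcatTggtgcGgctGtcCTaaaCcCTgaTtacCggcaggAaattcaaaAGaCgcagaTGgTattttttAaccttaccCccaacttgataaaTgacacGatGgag

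The capitals are spread differently in the 2 pairs. In Saa1 and Saa2 the stretch opens with a long run of identical bases, while in Orm1 and Orm2 differing bases begin within the first codons.

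To see how far reads could be confused, each protein-coding transcript was cut into overlapping windows, and every window was searched, on both strands, in the transcripts of all other genes. Of the windows of 100 bases, 93.0% were found in no other gene for Orm1 and the same share for Orm2, and the 47 shared windows of each lay in the other. For the other 8 genes every window of 100 bases was found in no other gene. With windows of 50 bases the share fell to 79.6% for Orm1, 77.3% for Orm2, 85.2% for Saa1 and 88.2% for Saa2, and it stayed at 100% for Hp, Apcs, Itih4 and Fgl1. No exon of the 10 genes overlapped an exon of another gene. The read length was not given in the sources used here, so which window stands nearer to the reads is not known.

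**Figure D1:**
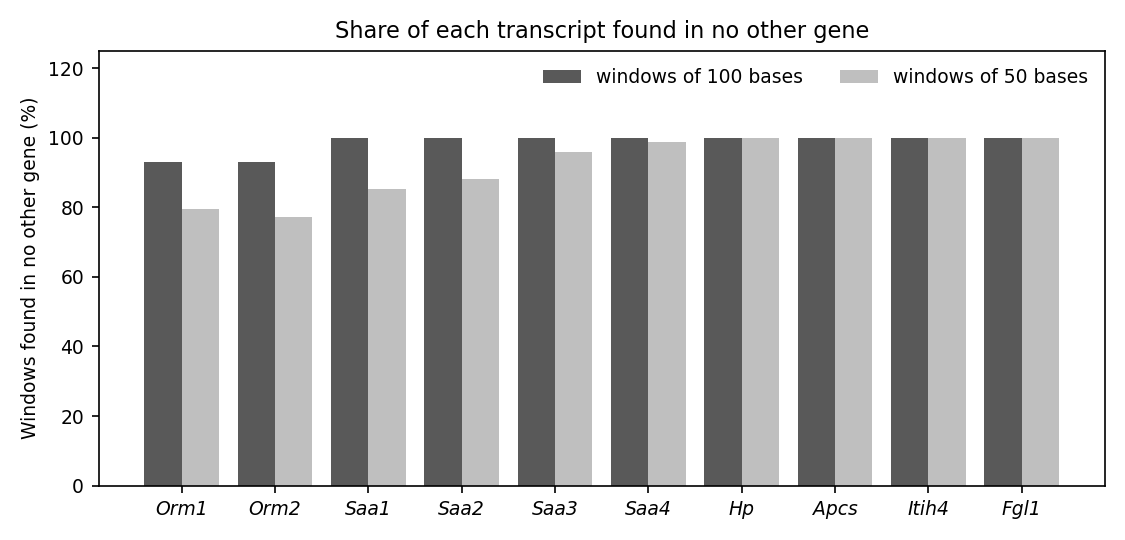
Share of the windows of each gene's protein-coding transcripts found in no other gene (y axis, percent, from 0), for windows of 100 bases (dark bars) and 50 bases (light bars). At 100 bases Orm1 and Orm2 stand at 93.0% and the other 8 genes at 100%, and at 50 bases the Orm and Saa genes fall below 100%.

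The Saa1 and Saa2 promoters are alike too. RefSeq promoter sequences (GRCm38.p6) were matched by symbol for 7 of the 10 genes, namely Apcs, Itih4, Orm2, Saa1, Saa2, Saa3 and Saa4. Over the 250 bases before the start, Saa1 and Saa2 were identical at 238 of 251 aligned positions (94.8%), and no other pair of Saa promoters was above 47.1%. The 120 bases furthest from the start are shown for both, at chr7:46743111-46743230 on the reverse strand and chr7:46751583-46751702 on the forward strand, since they hold a match to the C/EBP motif TTNNGNAAT, printed in capitals as it reads on the gene's own strand:
Saa1 promoter: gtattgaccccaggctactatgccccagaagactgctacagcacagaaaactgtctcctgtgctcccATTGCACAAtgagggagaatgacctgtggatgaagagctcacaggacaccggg
Saa2 promoter: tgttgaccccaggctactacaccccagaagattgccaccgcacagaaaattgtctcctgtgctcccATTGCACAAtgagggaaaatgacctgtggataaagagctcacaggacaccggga

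The match lies 183 to 175 bases before the start of Saa1 and 184 to 176 bases before that of Saa2. Of the 7 promoters, 3 held the C/EBP motif on either strand (Orm2, Saa1 and Saa2), against 10.2% of 32851 promoters of the same length. The STAT motif TTCNNNGAA was found in 2 (Apcs and Itih4) against 7.02% of all, and the letters TATAAA in Orm2 alone against 12.4% of all. The NF-kB motif was found in none of the 7 and in 7.25% of all. A match is a run of letters in this window and was not read as binding.

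The levels of the 10 genes reached from the lowest value of the table to a log2 CPM of 7.33, below the highest row, which was Alb at 63314 CPM. Rows without reads stood at the lowest log2 CPM, -2.71, where 11091 rows lay, and the other 19652 rows had reads. Because the authors' average adds a small prior count to every library, the prior was taken off to give CPM, and the number of reads over the 12 livers was recovered from the distance to the lowest value. The average library size after the authors' normalization was 13129748 reads, so that 1 read in the 12 livers together was worth 0.00635 CPM. Of the 10 genes, 4 were above 1 CPM (40%), against 9810 of all rows (31.9%). Their median was 0.510 CPM, beside 0.0697 CPM over all rows, which is a description only. Hp, Saa4 and Apcs held 97.4% of the reads of the 10 genes, and the 10 together made up 0.0344% of the CPM of all rows.

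**Figure D2:**
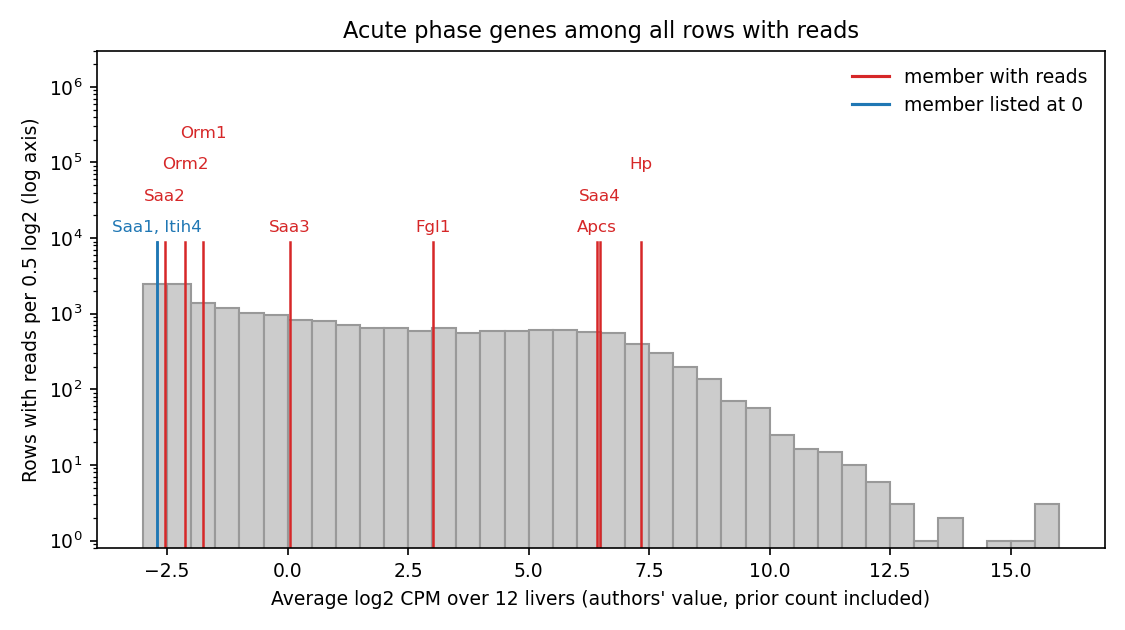
Number of rows with reads in each step of 0.5 in the authors' average log2 CPM over 12 livers (grey bars, log y axis), with the 10 acute phase genes as vertical lines. Hp, Saa4 and Apcs lie between 6.42 and 7.33, Fgl1 and Saa3 lie in the middle at 3.02 and 0.04, Orm1, Orm2 and Saa2 lie near the lowest value, and Saa1 and Itih4 (blue) lie on it.

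One feature of the table limits what a low value can say. Genes that hepatocytes or all cells use were listed at 0 or close to it, among them the hepatocyte factor Hnf4a and the transducer Stat3, both listed at 0. The calprotectin subunits S100a8 and S100a9, which form 1 complex in granulocytes, had 75258 reads and 2 reads. Outside the lists, and chosen after their values were seen, Ppia had 2 reads and Gapdh 796, while Actb had 406702 and Eef2 599438. The cause was not tested. A row at 0 is therefore given only as listed at 0, and a low row may understate its gene. RefSeq lists 2 messenger RNA records for Saa1, 4 each for Saa2 and Itih4, and 1 each for Orm1, Orm2 and Saa3. It lists 3 each for Stat3 and Hnf4a, 2 for S100a9 and 1 for S100a8. Ahsg with 3 records and Apoa2 with 4 were at 6781 and 2251 CPM, while Cd68 with 1 had 9 reads. Whether the number of records bears on a level was not tested, nor whether rows with many reads understate their genes too.

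Haptoglobin, encoded by Hp at chr8:109575128-109579172 on the reverse strand, binds haemoglobin set free from red cells. Hp was the highest of the 10 genes, at a log2 CPM of 7.33, or 161 CPM and 25359 reads over the 12 livers. It stood above 95.1% of the rows with reads. Per kilobase of exon, the scale on which different genes are compared, Hp was at 100.2 CPM per kb, 1.14 times the level of Apcs and 2.36 times that of Saa4. Hemopexin, encoded by Hpx, binds free heme and was at 538 CPM per kb, 5.37 times the level of Hp. RefSeq lists 2 messenger RNA records for Hp and 1 each for Hpx, Apcs and Saa4. Whether this bears on the ratios between them was not tested. Cd163, the macrophage receptor that takes up haptoglobin with its haemoglobin, had 1 read, and Lrp1, the receptor for hemopexin with heme, was at 18.3 CPM per kb.

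Granulocytes also make Hp, as well as Lcn2, which was at 43.5 CPM per kb over all merged exons and at 92.4 CPM per kb over the exons of protein-coding transcripts. Of 9 granulocyte markers 8 were above 1 CPM, with a range of 0.0126 to 758 CPM and a sum of 2122 CPM, and none was listed at 0. Their part in the level of Hp was not tested. Per kb, the primary granule genes Mpo and Elane were at 222 and 113 CPM.

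Serum amyloid P, encoded by Apcs at chr1:172893961-172895041 on the reverse strand, is a pentraxin that binds amyloid fibrils and chromatin. It was at a log2 CPM of 6.42, or 85.5 CPM and 13464 reads, above 90.4% of the rows with reads. Per kb it was at 88.0 CPM, 2.97 times the level of Crp, the C-reactive protein gene of the same family, at 29.7 CPM per kb. This ratio depended on the length used for Crp, and was 1.63 on the longest transcripts and 1.46 on the exons of protein-coding transcripts. By CPM without division by length the order turned, with Crp at 102 CPM and Apcs at 85.5 CPM. The coding sequences of Apcs and Crp were identical at 57.8% of aligned positions, and no window of 100 or 50 bases was shared between them. Ptx3, the long pentraxin that immune cells and vessels make, had 82 reads.

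The serum amyloid A proteins travel in plasma with high-density lipoprotein. Saa4, the member made constantly and not only in inflammation, was at a log2 CPM of 6.48, or 89.1 CPM and 14032 reads, above 90.7% of the rows with reads. Saa3, which macrophages and fat tissue as well as the liver make, was at a log2 CPM of 0.04, with 138 reads (95% Poisson interval 116 to 163) and 0.876 CPM (0.736 to 1.03). Per kb Saa4 was at 42.5 CPM and Saa3 at 0.336 CPM, a ratio of 127 between genes that are neighbours on the chromosome.

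Saa1 and Saa2 encode the forms that rise most in plasma during inflammation. Saa2 had 3 reads over the 12 livers (0.619 to 8.77) and Saa1 was listed at 0. Since the symbols may be exchanged, which locus gave the 3 reads is not known. By the symbols of the rows, and not by locus for Saa1 and Saa2, Saa3 had 138 reads, Saa4 had 14032, Saa1 was listed at 0 and Saa2 had 3. Only Saa4 was above 1 CPM.

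Alpha-1-acid glycoprotein, also known as orosomucoid, binds drugs and lipids in plasma. Orm1, at chr4:63344560-63348163, had 23 reads (14.6 to 34.5) and Orm2, at chr4:63362449-63365878, had 12 reads (6.20 to 21.0). These intervals overlap, and each of the 2 genes shares windows with the other, so neither can be placed above the other. Orm3, which lies between them, had 1 read. Orm1 stood above 28.7% of the rows with reads and Orm2 above 23.0%.

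Fibrinogen-like 1, encoded by Fgl1 at chr8:41191434-41215156 on the reverse strand, is a factor that hepatocytes secrete, and it binds the T cell receptor LAG-3. It was at a log2 CPM of 3.02, or 7.98 CPM and 1258 reads (1189 to 1329), above 69.9% of the rows with reads. Its level per kb depended on the length used. It was 1.80 CPM per kb over all merged exons, which include a long transcript with a retained intron, and 7.13 CPM per kb over the exons of its protein-coding transcript. On both lengths Fgl1 stayed below Saa4 and above Saa3. The fibrinogen chains, which share a domain with Fgl1, were higher, with Fgb at 626 CPM per kb, Fgg at 67.1 and Fga at 24.6. These 3 chains are assembled in equal numbers. As listed, the level of Fgb was 25.5 times that of Fga and 9.32 times that of Fgg. Fga had 11656 reads and Fgg had 22143, so neither is a low row. RefSeq lists 1 messenger RNA record for Fgb and 2 each for Fga and Fgg, and the cause of the difference was not tested. Lag3 itself had 83 reads.

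Inter-alpha-trypsin inhibitor heavy chain 4, encoded by Itih4 at chr14:30886476-30902353 on the forward strand, was listed at 0. It lies next to Itih3 and Itih1, within 56.8 kb. Other heavy chains, which coat hyaluronan in the matrix, were high, with Itih2 at 1151 CPM per kb and Itih3 at 456 CPM per kb. Itih1 had 10 reads and Itih5 was at 9.39 CPM per kb. Ambp, whose product bikunin joins the heavy chains, was at 1552 CPM per kb. No window of the Itih4 transcripts was shared with another gene at either window length.

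**Figure D3:**
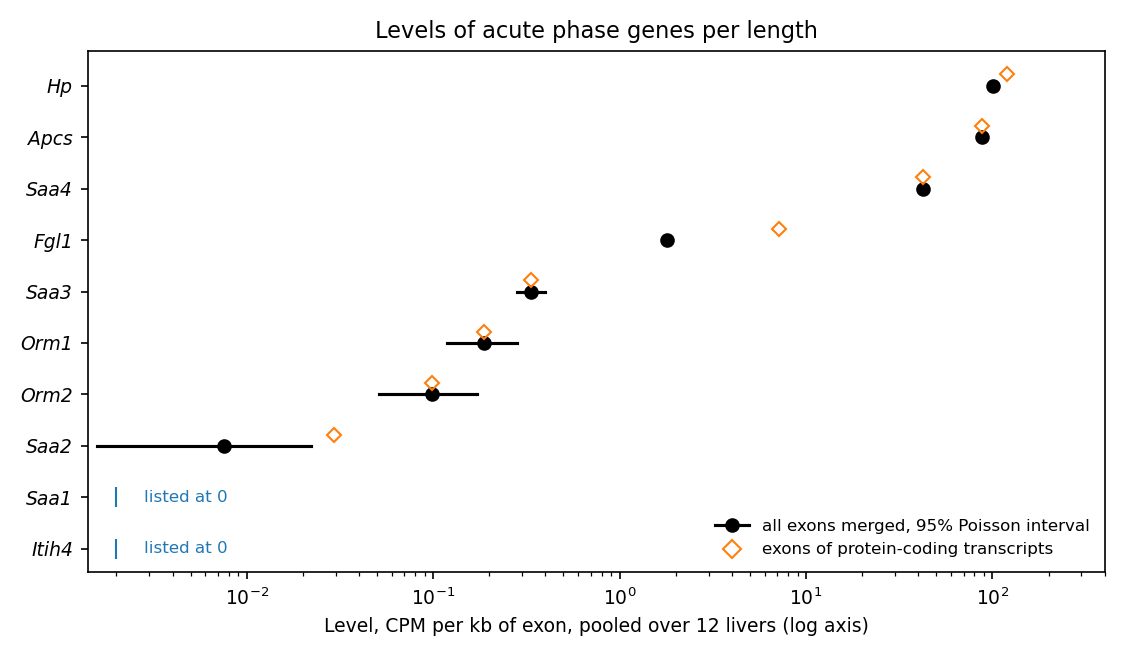
Level of the 10 acute phase genes in CPM per kb of exon, pooled over 12 livers (log x axis), with all exons merged (black points, lines for 95% Poisson intervals from the reads) and with exons of protein-coding transcripts alone (orange diamonds). Hp, Apcs and Saa4 lie between 42.5 and 120 CPM per kb, and Fgl1 moves from 1.80 to 7.13 CPM per kb with the length used.

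Ranked among all rows by level per kb, the order of the genes was Hp, Apcs, Saa4, Fgl1, Saa3, Orm1, Orm2 and Saa2. Hp stood above 97.4%, Apcs above 97.1% and Saa4 above 93.6% of 15887 rows with reads and a length. Without division by length Saa4 came before Apcs, by a factor of 1.04, and with it Apcs was 2.07 times higher than Saa4. Saa3 stood near the middle, above 48.7% of the rows, where the median row was at 0.379 CPM per kb.

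Other genes listed here as positive, or rising, in the acute phase were for the most part above 1 CPM. The list includes A2m, at 742 CPM, and whether each of its genes rises in the mouse was not checked. Of 19 such genes 17 were above 1 CPM, with a median of 74.0 CPM and a range of 0.0316 to 4362 CPM. The highest was C3, the central complement component, at 4362 CPM. Mt2, a metal-binding protein, followed Fgb at 1759 CPM, and Lbp, which carries lipopolysaccharide, was at 92.4 CPM. Hamp, the hepcidin gene that governs iron release, was at 7.09 CPM. Below 1 CPM were Hamp2, at 0.599 CPM, and Serpina1a, which had 5 reads. Serpina1a has close copies in its own cluster, but its windows were not searched, and the cause of its low row was not tested.

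The 8 genes of plasma proteins that fall in the acute phase were all above 1 CPM, from 9.84 CPM for Rbp4 to 63314 CPM for Alb. Their median was 3241 CPM. Per kb, albumin was at 270 times the level of Hp, and Afp, the fetal counterpart of albumin, at 162 times. Both are defining hepatocyte markers, and of 8 such markers 6 were above 1 CPM, while Serpina1a and Hnf4a were not.

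The rows of the cytokines that induce these genes were low, and such rows may understate their genes. Of 7 such ligands only Osm, which encodes oncostatin M, was above 1 CPM, at 2.74 CPM. Il6 had 12 reads, Il1b had 11, Il11 had 26, Il1a had 6 and Lif had 4, and Tnf was listed at 0. Among 7 receptor genes 4 were above 1 CPM. Il6st, which encodes gp130, was at 78.6 CPM and Tnfrsf1a at 110 CPM. Il6ra, the part that binds interleukin-6, was listed at 0, and Osmr and Lifr had 5 and 10 reads.

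Downstream of these receptors, 6 of 9 transducer and feedback genes were above 1 CPM. Jak1 was the highest at 394 CPM, and Jak2 was at 3.38 CPM. Socs3, which STAT3 induces and which damps the signal, was at 41.3 CPM, and Stat3 itself was listed at 0. Nfkbia, the inhibitor that NF-kB induces, was at 27.1 CPM, Rela at 4.19 CPM and Nfkb1 had 81 reads. Of 5 transcription factors 4 were above 1 CPM, led by Cebpa at 179 CPM. Cebpb was at 17.0 CPM, Cebpd at 11.5 CPM and the glucocorticoid receptor gene Nr3c1 at 2.10 CPM. Among 5 receptors of the secreted proteins, Tlr2 was at 14.5 CPM, Scarb1 at 13.1 CPM and Fpr2, which binds serum amyloid A, at 5.20 CPM.

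**Figure D4:**
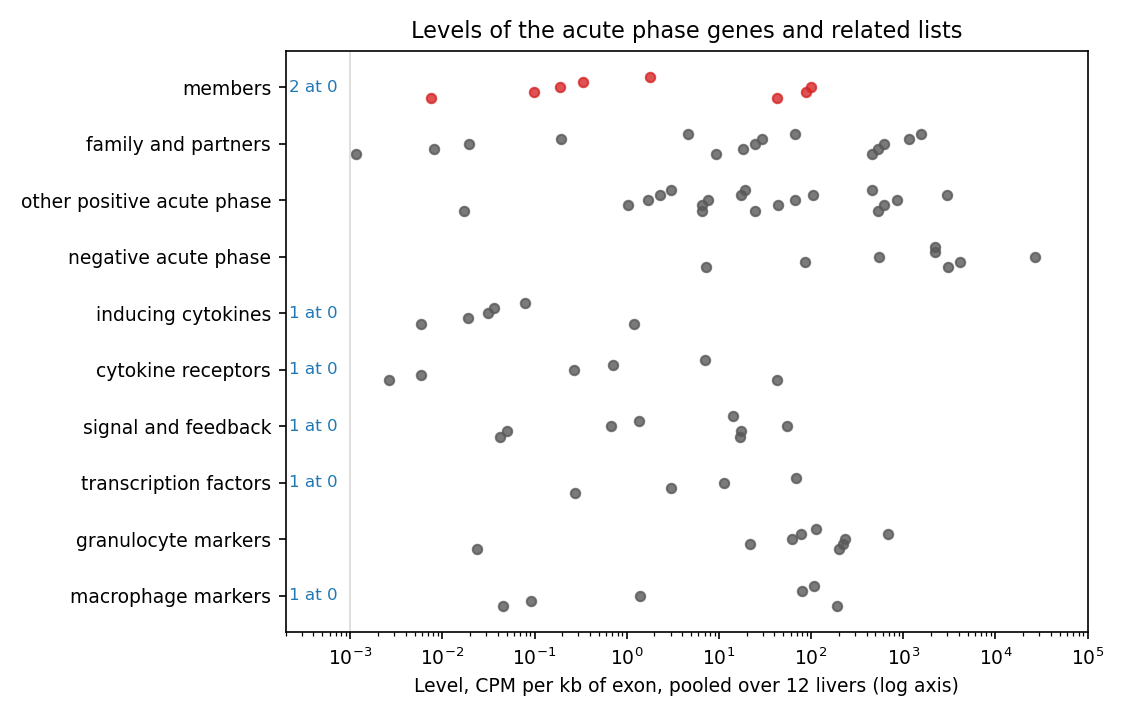
Level per gene in CPM per kb of exon, pooled over 12 livers (log x axis), for the 10 acute phase genes (red) and 9 related lists (grey). Each point is 1 gene, the vertical place within a row has no meaning, and the number of genes listed at 0 stands at the left. The negative acute phase genes have the highest median of the 10 lists plotted, 2197 CPM per kb, and the inducing cytokines lie low, with only Osm above 1 CPM per kb.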

How the data were processed

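RNA was extracted from 12 whole fetal livers, polyA-selected and sequenced on an Illumina HiSeq from libraries that do not keep strand. Per the labels' processing notes and the study's methods, cutadapt 1.2.1, alignment to mm10 with Subread 1.3.6-p1 and edgeR were used by the authors. The counting tool and the version the authors had of edgeR were not given in the sources used here. The authors deposited 1 table of 30743 gene symbols with average log2 CPM over all libraries. It also holds 8 columns of their own diet comparison (fold changes, p-values and false discovery rates), which were not used. No column of another series was present.

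Reads were recovered from the log2 value, its minimum (-2.71) and the default prior count of 2 in each of 12 libraries. Of 4524 rows with 1 to 12 recovered reads, 99.4% fell within 0.1 of a whole number. Above that range the recovered number is approximate, since the average weights libraries. The recovery was tested on simulated data. Lengths and positions came from GENCODE M21 (GRCm38). Promoters, synonyms and numbers of messenger RNA records came from RefSeq. Python 3.11.15, pandas 2.3.3, scipy 1.17.1 and Biopython 1.88 were used. The genes named are the 10 genes and the lists of related genes and of cell type markers. A further transcription factor is not reported here. These were chosen with earlier results of these data known. Intervals cover counting error only, since reads without molecular identifiers are not independent molecules.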

Additional observations from a re-analysis of the deposited data

How the results depend on the processing

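No value of a single liver was used, so leaving out a liver could not be run. No paired analysis was possible because no result comes from a test and the labels give the fetuses of the 2 groups no shared number. The other dispersion's average log2 CPM was not run. The median level of the 10 genes was 0.510 CPM, 0.663 with the prior count kept and 46.7 without Saa1, Saa2, Orm1 and Orm2. The median level per kb, 0.262 CPM, was 0.510 without division by length, 0.293 on the longest transcript and 0.262 on protein-coding transcripts. The last 2 lay between the median lower and the median upper counting limit of the 10 genes. In these medians, genes listed at 0 were given limits of 0. Under each of the last 2, 3 single genes left their own counting intervals. The median percentile of the 8 genes with reads was 59.2 among rows with reads, 73.9 among all rows and 57.0 by level per kb, and 81.1 among rows above 1 CPM, where 4 genes remained. The median share of unshared windows was 100% at 100 bases and 97.3% at 50 bases. The prior count kept, the levels per kb on protein-coding transcripts and the rank per kb were added after seeing the data. Relative to the level, the counting intervals are widest for Orm1, Orm2 and Saa2, which had 23, 12 and 3 reads in 12 livers. For Saa1 and Itih4, listed at 0, no relative width can be given, and the counting interval runs from 0 to 3.69 reads.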

Other observations

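Markers of the other cell types in the fetal liver give the setting of these levels. Of 6 measured erythroid markers, 5 were above 1 CPM, led by Hbb-b1, an adult beta globin, at 24904 CPM, and Alas2, the erythroid enzyme of heme synthesis, had 87 reads. Macrophage markers were uneven. Cd5l, Marco and C1qa were at 385, 208 and 82.4 CPM, whereas Csf1r had 84 reads, Cd68 had 9 reads and Emr1 was listed at 0. All 3 megakaryocyte markers and all 3 mesenchymal markers were above 1 CPM, with medians of 44.1 and 15.6 CPM. Of the B lineage markers 2 of 3 were above 1 CPM (median 4.57 CPM), and of the endothelial markers 3 of 4, with Lyve1 at 151 CPM and Pecam1 listed at 0.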
